A study of Mus musculus with 123 samples.

Results

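In the mouse cerebral cortex, 939 of 130727 sites of open chromatin were most open at light onset in undisturbed animals, and they are described here. The sites are ATAC-seq peaks: a transposase inserts adapters into DNA that is not wrapped tightly in nucleosomes, so read density in a peak measures how accessible that stretch is. A peak was taken when its mean log2(signal + 0.5) in undisturbed mice at ZT0 (zeitgeber time, hours after lights on) exceeded the highest of the 4 means at ZT3, ZT6, ZT12 and ZT18 by at least 0.3, and its mean over all libraries was at least 1.5. That minimum level alone left 118796 peaks. The same rule applied to the other times gave 1121 peaks most open at ZT3, 1197 at ZT6, 2659 at ZT12 and 698 at ZT18.

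The animals were male mice of the inbred strain C57BL/6J, housed in 12 h of light and 12 h of darkness, and sleep deprivation was done at 11 to 12 weeks of age. Undisturbed controls gave 8 ATAC libraries at ZT0, 3 at ZT3, 5 at ZT6, 5 at ZT12 and 4 at ZT18. The other mice lost the first 6 h of sleep in the light period, T24 to T30 on the study's clock, through gentle handling, and the labels name no transgene or drug. They were taken during deprivation (T27 at ZT3, T30 at ZT6), in the recovery after it (T36 at ZT12, T42 at ZT18), on Day 2 (T48 at ZT0, T54 at ZT6, T60 at ZT12, T66 at ZT18), on Day 3 (T72 at ZT0, T78 at ZT6) and on Day 8 (T192 at ZT0, T198 at ZT6). Each of these 12 groups had 3 ATAC animals, except T66 with 1, and RNA-seq came from these animals and from others without an ATAC library, so that T66 had 3 in RNA and the ZT18 controls 5. The labels describe T36 as taken during deprivation, whereas the protocol ends it 6 h earlier, and the protocol's time was used.

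Chromatin in the cortex opens and closes with neuronal activity and with the time of day. Most sites that change lie away from gene starts, in enhancers, which are bound by transcription factors and act on genes that may be near or far. Immediate early genes such as Fos and Egr1 are transcribed within minutes of neuronal firing, and several of them encode AP-1 and Egr factors that bind enhancers. Clock genes run a feedback loop of about a day in most cells, with activators that bind E-boxes. Light onset is the end of the active period of a mouse, when the need for sleep is high after a night awake.

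The chosen peaks were sites away from gene starts. Only 12 of 939 (1.28%) overlapped a promoter window, the 250 bases before to 50 bases after a RefSeq gene start, against 9.50% of all peaks and 3.69% of peaks in the level band that holds the 5th to 95th percentile of the chosen ones. Within coding genes lay 475 (50.6%, all peaks 56.8%), and 260 (27.7%, all peaks 19.4%) lay more than 50 kb outside any. Their median width was 505 bp, against 546 bp for all peaks. On chromosome X lay 10 (1.06%, all peaks 1.68%). The peaks were nearest to 829 coding genes, of which 739 had 1 such peak and 18 had at least 3.

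The few promoter members can be shown as sequence, because RefSeq promoter windows (build GRCm38.p6) were available for them and the genome itself was not used here. Of 13 motifs searched on both strands in the 250 bases before each start, 3 windows are printed because they carry a match to a motif of factors that immediate early genes encode. Capitals mark the matches. They are TGANTCA (AP-1), CAGATG (bound by neuronal bHLH factors) and, read on the opposite strand as CGCCCACGC, GCGTGGGCG (Egr). All 3 lie on the minus strand: Sprr1a at chr3:92485882-92486131, Chst4 at chr8:110039335-110039584 and Scn7a at chr2:66784911-66785160.
Sprr1a: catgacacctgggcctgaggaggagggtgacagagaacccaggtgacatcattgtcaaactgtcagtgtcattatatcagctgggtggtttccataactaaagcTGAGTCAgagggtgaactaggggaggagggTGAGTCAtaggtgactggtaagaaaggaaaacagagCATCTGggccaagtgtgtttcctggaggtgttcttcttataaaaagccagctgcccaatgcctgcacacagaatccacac
Chst4: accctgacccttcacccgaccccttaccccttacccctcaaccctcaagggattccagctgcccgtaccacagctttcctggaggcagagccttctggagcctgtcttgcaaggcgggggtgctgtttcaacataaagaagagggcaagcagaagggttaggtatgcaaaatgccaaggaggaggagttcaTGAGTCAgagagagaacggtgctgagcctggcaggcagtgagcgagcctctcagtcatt
Scn7a: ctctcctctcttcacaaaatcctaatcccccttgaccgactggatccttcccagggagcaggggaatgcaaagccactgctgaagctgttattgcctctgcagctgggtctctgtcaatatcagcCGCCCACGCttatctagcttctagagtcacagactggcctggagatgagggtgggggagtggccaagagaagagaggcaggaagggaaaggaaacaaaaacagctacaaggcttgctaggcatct
In Sprr1a, which encodes a cornified envelope protein, the AP-1 matches begin 146 and 116 bases before the start and the CATCTG match 80 bases before it. In Chst4, a carbohydrate sulfotransferase gene, the AP-1 match begins 59 bases before the start. In Scn7a, which encodes a sodium channel, the Egr match begins 125 bases before it. AP-1 matches were present in 2 of 12 member windows, against 6.75% of all 32851 RefSeq windows of the same length. Egr was present in 1 of 12 against 0.536%, and CAGATG in 3 of 12 against 14.4%. One window each held ACANNNTGT (steroid receptor element, Slc25a48; 5.84% of all windows) and TATTTATA (Mef2, Pate1; 1.56%). No member window held CACGTG (the clock's E-box, 6.02% of all), TTATGTAA (0.819%) or TTACGTAA (0.113%, both D-boxes), TAGGTCA (ROR element, 2.23%), TGACGTCA (CRE, 1.55%), GAANNTTC (heat shock element, 6.69%), CCGGAAGT (Ets, 2.88%) or AGGGGGC (CTCF core, 9.43%). The median GC content was 52.4% in both the member windows (range 40% to 62.8%) and all windows. A match is a description of letters, not a bound site.

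In the controls, whose ATAC values chose the peaks and are therefore given without a test, the excess of ZT0 over the next highest time had a median of 0.35 on the log2 scale, which is 1.28-fold, and reached 0.80. An excess over 0.5 was found for 56 peaks. The median level was 2.02 in log2(signal + 0.5), with a range from 1.5 to 4.38. Just inside the margin lay peaks nearest to Csmd2 (0.30002), Jazf1 (0.30018) and Adgra2 (0.30025), and just outside lay those of Thada (0.29997), Pde4dip (0.29997) and Ldb1 (0.29983). The peak with the largest excess lay within Cdkal1, which encodes a transfer RNA modifying enzyme, at chr13:29831782-29832278. Its signal at ZT0 ran from 1.74 through a median of 3.52 to 5.98, against medians of 1.5 at ZT3, 1.95 at ZT6, 1.89 at ZT12 and 1.65 at ZT18. The ZT0 animal at 1.74 fell among those of other times, and the next, at 3.12, lay above the highest of them, 3.03 at ZT12.

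To follow the 939 peaks through every library, their median level was set against the median of all peaks with a mean level of at least 1.5 in the same library. In the controls this difference averaged -0.097 at ZT0 (SD 0.089, n = 8), -0.621 at ZT3, -0.600 at ZT6, -0.622 at ZT12 and -0.509 at ZT18, as the choice of peaks fixes. The deprived mice had no part in that choice, except that the minimum level was averaged over all libraries. Their difference was -0.012 at T27 and -0.049 at T30, near the ZT0 controls although these mice were at ZT3 and ZT6. After deprivation it was -0.360 at T36 and -0.346 at T42. From then on it was higher at ZT0 (T48 -0.267, T72 -0.339, T192 -0.324) than at ZT6 (T54 -0.464, T78 -0.538, T198 -0.464), and it was -0.555 at T60 and -0.422 in the 1 library of T66. The T27 and T30 animals (-0.094 to 0.059) lay above every animal of T36 to T198, the highest of which was -0.174. Values by batch in the controls were -0.146 to -0.080 at ZT0 in batch 1 and -0.186 to 0.106 in batch 2, both above ZT6 (-0.692 to -0.521 and -0.578 to -0.539). One ZT0 library of batch 2, animal T0N9, stood apart at 0.106. With it left out the rule chose 983 peaks, 669 of them among the 939, and the 5 comparisons below then called 54, 21, 0, 12 and 194 of them (46, 25, 0, 14 and 212 of the 939). In bulk cortex, fewer cells of a type and less open chromatin or RNA per cell cannot be told apart.

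**Figure D1:**
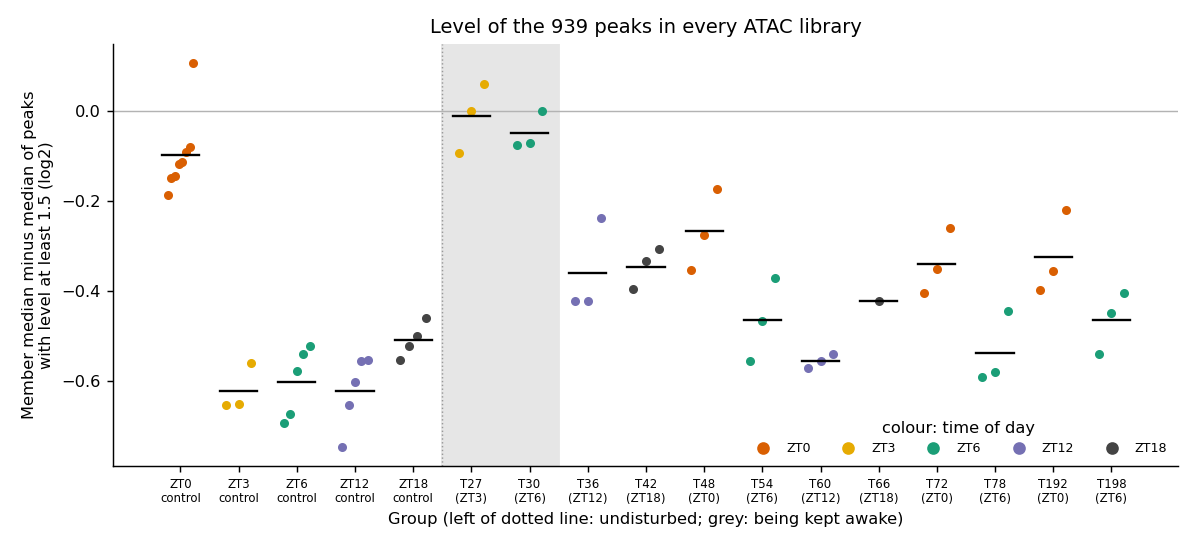
Each point is 1 ATAC library, coloured by time of day, and the vertical axis gives the median log2(signal + 0.5) of the 939 peaks minus that of all peaks with a mean level of at least 1.5; black lines are group means. Left of the dotted line are the undisturbed mice that chose the peaks. The T27 and T30 mice (grey) average -0.012 and -0.049, and later groups fall between -0.267 and -0.555.

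Reads behind these values were 2.21 to 11.9 M in peaks per library (median 4.09 M), and the median chosen peak held 7 to 44 reads per library, so a single peak in a single animal is coarse. The share of signal that lay in peaks at promoter windows also differed between groups: it averaged 25.5% in ZT0 controls, 25.3% at T27 and 25.6% at T30, against 27.4% in ZT6 controls, 27.7% at T54 and 27.9% at T78. The order was not the same throughout: T48, at 26.8%, had a higher share than T198 (26.4%) or T42 (26.5%), in which the peaks were lower. The results below are also given with that share as a covariate. The mean RNA level of 22 immediate early genes was 4.97 in log2 units at ZT0 in controls, 5.54 at T27 and 5.45 at T30, against 4.08 at ZT6 in controls, 4.34 at T54 and 4.02 at T78. The part of either in the ATAC differences was not tested beyond the covariate. Markers of every cell type list were measured in RNA. Their means over the libraries ran from 7.32 to 7.57 log2 units for excitatory neurons, 6.62 to 6.93 for inhibitory neurons, 6.15 to 6.56 for astrocytes, 6.51 to 7.39 for oligodendrocytes, 3.46 to 3.90 for their precursors, 4.70 to 5.01 for microglia and 4.21 to 5.01 for endothelium.

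**Figure D2:**
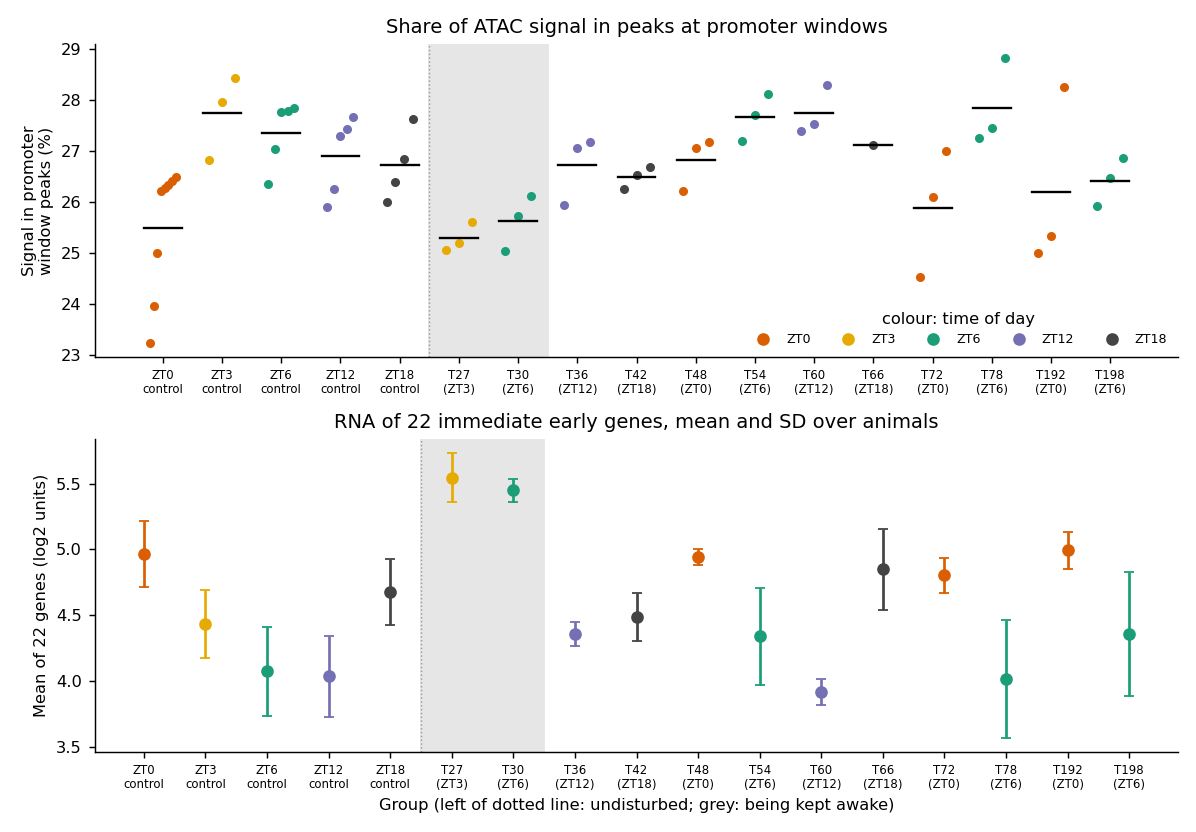
The upper panel gives the share of ATAC signal in promoter window peaks (%) per library, with group means as lines, and the lower panel the mean RNA level of 22 immediate early genes (log2 units; points are group means and bars SD over animals). T27 and T30 have the lowest deprived-group shares, 25.3% and 25.6%, and the highest RNA means, 5.54 and 5.45.

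Whether the peaks were also higher at ZT0 than at ZT6 in mice the choice had not used was tested in the deprived animals of Day 2, Day 3 and Day 8 (limma across all peaks, Benjamini-Hochberg adjusted p under 0.05 as a call). Of the 939, 46 were called higher (4.90%), against 0.440% of all 130727 peaks, and 1 was called lower (0.106%), against 0.646%. The median difference was 0.211 on the log2 scale (1.16-fold), with the middle 50% of peaks between 0.072 and 0.356, against 0.002 for all peaks. A positive difference was found for 799 (85.1%, all peaks 50.5%). Called peaks were 1.3-fold to 2.03-fold higher (median 1.48-fold). They lay near 46 different genes, 23 of them within a gene.

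Among the peaks called higher, the largest difference belonged to one at chr7:135813203-135814092, an intergenic site 97197 bp from Mki67, the gene of the proliferation marker Ki-67. Its normalized signal at ZT0 was 5.08, 8.55 and 9.60 in the T48 animals, 6.52, 8.46 and 9.04 at T72, and 8.42, 8.90 and 9.82 at T192. At ZT6 it was 3.21, 3.61 and 4.10 at T54, 2.45, 3.38 and 4.96 at T78, and 3.72, 4.37 and 4.56 at T198. Every ZT0 animal was above every ZT6 animal, and the difference was 1.02 (SE 0.14, 2.03-fold, limma adjusted p = 1.47e-05). Mki67 RNA was low (-0.37 log2 units at ZT0 in controls) and not called (0.07, SE 0.05, limma adjusted p = 0.338).

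A peak 2161 bp from Htr1b, which encodes the serotonin 1B receptor, lay at chr9:81625789-81626471. It read 8.23, 18.8 and 20.3 at T48, 9.52, 12.3 and 15.5 at T72 and 7.33, 12.7 and 16.2 at T192. The ZT6 animals read 6.04, 7.74 and 16.1 at T54, 4.51, 6.00 and 7.86 at T78 and 3.01, 4.67 and 12.7 at T198. The ZT6 animals were lower on each day but overlapped the ZT0 range, most of all 1 animal each of T54 and T198, and the difference was 0.86 (SE 0.16, 1.82-fold, limma adjusted p = 0.00158). Htr1b RNA was higher as well, by 0.38 (SE 0.07, limma adjusted p = 0.000157).

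Within Mtcl1, which encodes a microtubule crosslinking factor, the peak at chr17:66395852-66396530 differed by 0.79 (SE 0.15, 1.73-fold, limma adjusted p = 0.00225). Its ZT0 signals were 4.15, 5.08 and 7.04 at T48, 3.81, 5.43 and 7.54 at T72 and 5.72, 5.75 and 7.55 at T192. At ZT6 they were 1.94, 1.98 and 4.13 at T54, 2.45, 2.90 and 2.93 at T78 and 2.62, 4.56 and 5.44 at T198. The T54 animal at 4.13 and the T198 animals at 4.56 and 5.44 reached into the ZT0 range. Mtcl1 RNA was not called (-0.04, limma adjusted p = 0.507). The others of the 8 largest called differences lay within Ptprn2, a phosphatase-like protein of secretory vesicles (0.75, limma adjusted p = 0.00283), within Prdm6 (0.76, 0.0143), and outside Pdcd6ip (0.83, 0.00944), Lemd2 (0.79, 0.0107) and Prelid2 (0.76, 0.00564). Of these, Pdcd6ip, an ESCRT-associated protein, had RNA called higher, by 0.10 (limma adjusted p = 0.0318), while Ptprn2 (-0.05) and Lemd2 (-0.01) RNA were not called.

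**Figure D3:**
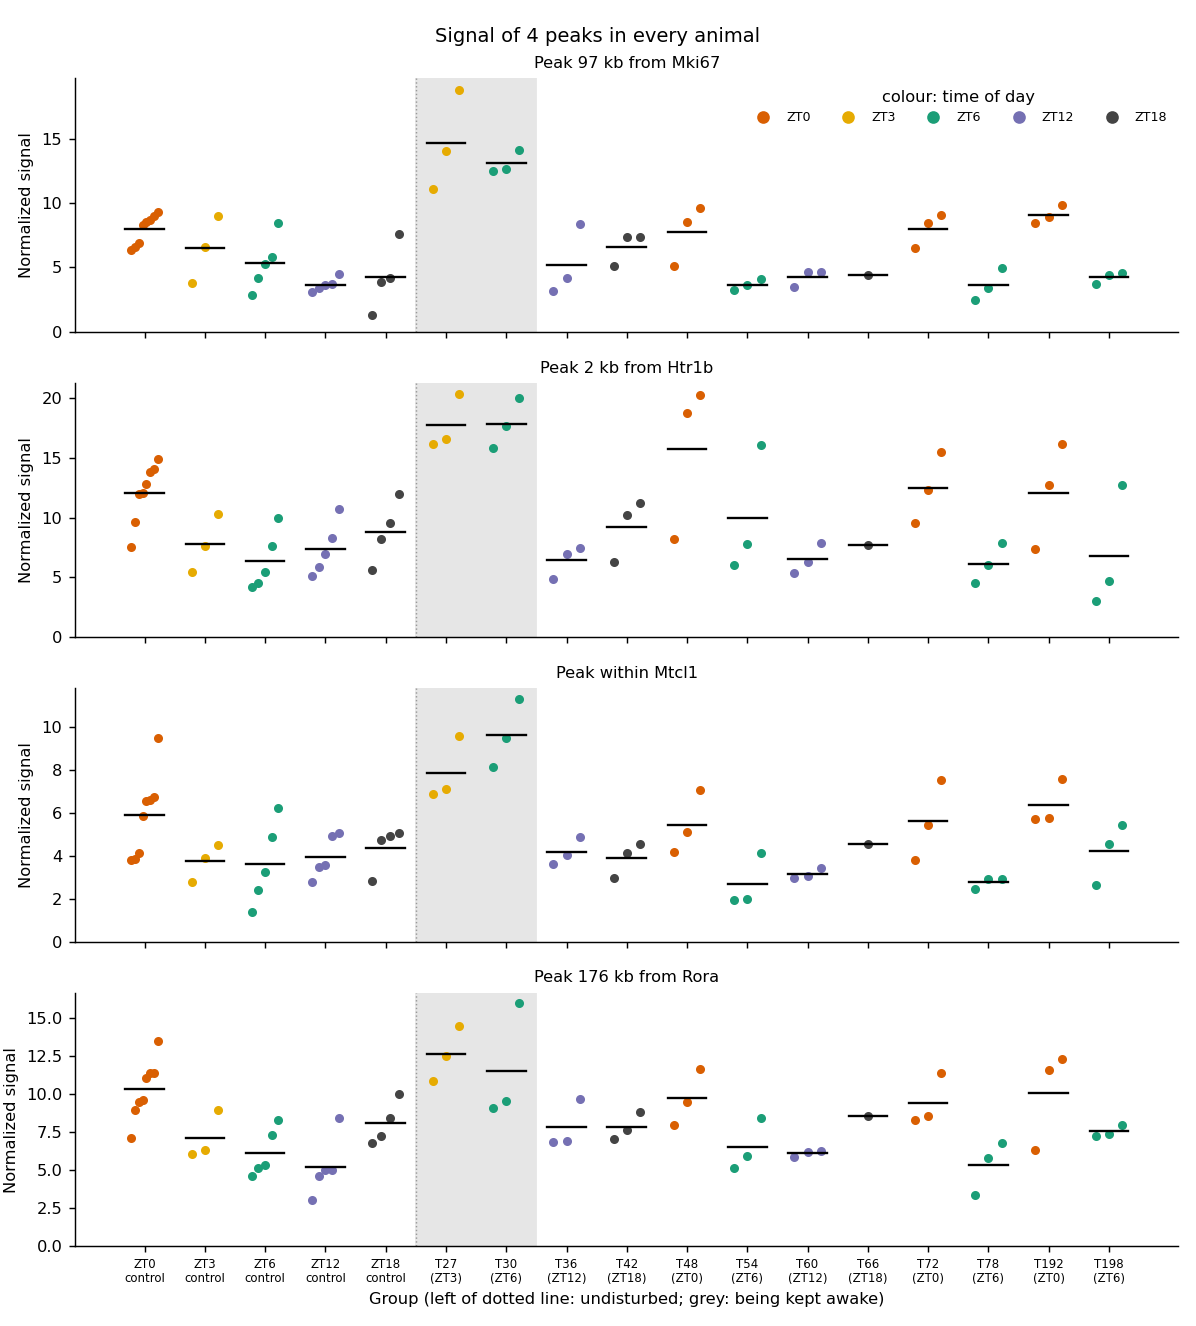
Normalized ATAC signal (vertical axes, from 0) in every animal for 4 of the peaks: those nearest to Mki67, Htr1b and Rora and the one within Mtcl1; black lines are group means and colours give time of day. At T48, T72 and T192 the Mki67-side peak reads 5.08 to 9.82 and at T54, T78 and T198 2.45 to 4.96, and at T27 and T30 it reads 11.1 to 18.8.

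Of the 939 peaks, 4 were nearest to a gene of a 22-gene clock list, of 279 peaks near those genes (1.43%, all peaks 0.718%). These are too few to read an excess or a lack. The one nearest to Rora, a nuclear receptor that activates Bmal1, lay 175697 bp away at chr9:68477308-68478107 and differed by 0.57 (SE 0.13, 1.48-fold, limma adjusted p = 0.0134). It read 7.99, 9.52 and 11.7 at T48, 8.33, 8.57 and 11.4 at T72 and 6.37, 11.6 and 12.3 at T192. At ZT6 it read 5.19, 5.93 and 8.42 at T54, 3.38, 5.79 and 6.82 at T78 and 7.29, 7.41 and 8.02 at T198. The groups overlapped, since all T198 animals lay above the lowest T192 animal. The peaks of Bhlhe40, a clock repressor (0.37, adjusted p = 0.344), Npas2, a partner of Bmal1 (0.20, 0.688), and Hlf, a D-box factor (-0.20, 0.680), were not called. In RNA, Bhlhe40 was higher at ZT0 by 0.43 (limma adjusted p = 0.000773), and Rora (0.03), Npas2 (0.06) and Hlf (0.00) were not called. None of the 939 was nearest to a gene of the immediate early list, of 191 peaks near those genes. The same held for 7 lists of cell type markers, with 15 to 76 peaks each. At the share of 0.718% over all peaks, lists of this size would hold few members, so no lack is read from these.

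The 6 peaks with the highest level have the best-counted values, and all were within genes. Sptbn1, a spectrin of the membrane skeleton, carried one at 4.24 that was higher at ZT0 by 0.43 (SE 0.10, limma adjusted p = 0.0177). It read 19.4, 19.5 and 21.8 at T48, 20.7, 20.9 and 26.3 at T72 and 20.7, 23.8 and 26.4 at T192. At ZT6 it read 10.8, 12.7 and 17.0 at T54 and 13.3, 13.6 and 16.8 at T78, all below ZT0, but 17.5, 22.7 and 27.0 at T198, 2 of them above the lowest ZT0 animal. Called with it were Gse1 (0.50, limma adjusted p = 0.0441) and Fbxo36 (0.38, 0.0373). The peaks within Tet1, a methylcytosine dioxygenase (0.28, adjusted p = 0.174), Camta1, a calmodulin-binding transcription factor (0.28, 0.191), and Il1rl1, the interleukin-33 receptor (0.37, 0.0573), were not called. RNA of these genes went both ways: Gse1 (0.31, limma adjusted p = 0.00131) and Tet1 (0.40, 0.0284) were higher at ZT0, Camta1 (-0.08, 0.0294) and Fbxo36 (-0.21, 0.0471) lower, and Sptbn1 (0.00, 0.974) was not called. Of the 8 peaks with the largest excess in controls, the one within C1qtnf7, a secreted protein, was called (0.66, adjusted p = 0.0310), and the others differed by 0.15 to 0.40 without a call.

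By level, 35 of the 46 calls fell in the highest 313 peaks, 7 in the middle and 4 in the lowest, whereas the median difference was 0.242, 0.212 and 0.187. By excess in the controls, the highest 313 differed by a median of 0.254 and the lowest 313 by 0.167. By position, the median was 0.198 within genes and 0.219 outside, with 23 calls each. The single peak called lower at ZT0 was named after its value was seen. It lay 502290 bp from Pla2g4a, a phospholipase gene, and differed by -0.68 (limma adjusted p = 0.0373).

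The 3 days had medians of 0.229 on Day 2, 0.253 on Day 3 and 0.163 on Day 8, and 454 of the 939 peaks (48.4%) were higher at ZT0 on all 3 days, against 17.8% of all peaks. No day alone called a member (limma; 150, 167 and 91 of the 939 at an unadjusted p under 0.05, and 10405, 11351 and 6486 of all 130727), and the days of batch 1 together called 21. Day 8 against the earlier days gave no called difference for any peak (37 members and 4419 of all peaks at an unadjusted p under 0.05; edgeR was not run for it). With the promoter share as a covariate 12 members were called, and 221 of all peaks. Leaving out 1 library gave 14 to 60 calls, and the 575 called higher over all peaks, given in brackets, changed as well. The count was 14 (190) without J70S3, 17 (237) without T78S2, 20 (228) without T54S1 and 23 (254) without J76S2. It was 25 (362) without T48S1, 26 (437) without T54S2, 29 (315) without T78S3 and 30 (396) without T48S3. The highest counts were 60 (755) without J76S3 and 59 (781) without T78S4.

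Against the other times of day limma gave fewer calls in the deprived mice. Over ZT12 (T36 and T60) 25 peaks were called higher at ZT0 (2.66%), against 0.171% of all peaks, and 0 lower against 0.332%. The median was 0.188, and 759 (80.8%) were positive. Called here were the Htr1b-side peak (0.91, SE 0.18, limma adjusted p = 0.00397), the Mki67-side peak (0.82, SE 0.16, 0.00358), and those within Gse1 (0.70, 0.0125) and Sptbn1 (0.50, 0.0220). The batches differed in size: the median was 0.069 in batch 1, where T36 came 6 h after deprivation, with 9 calls, and 0.301 in batch 2, with T60 on Day 2, with 6. By edgeR 45 members and 494 of all peaks were called higher, against 45 and 588 for ZT0 over ZT6. With the promoter share as a covariate in limma 12 were called, and 160 of all peaks. Without 1 library the limma count was 6 to 28, and the 224 called higher over all peaks, given in brackets, changed as well. It was 6 (62) without J70S3, 10 (91) without T36S4, 10 (82) without T60S4 and 11 (79) without T60S2. It was 15 (121) without T60S3, 16 (145) without J70S1, and at most 28, without J70S2 (297) or T72S4 (226).

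Over ZT18 (T42 and the 1 library of T66, which the fit takes to vary like the other groups) limma called 0 members and 0 of all 130727 peaks (0%). The median was 0.085 with 603 positive (64.2%), and 67 members and 5030 of all peaks had an unadjusted p under 0.05. By edgeR on the recovered reads 1 member and 18 peaks in all were called higher. Within batch 1 the median was 0.070 and within batch 2 0.109.

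**Figure D4:**
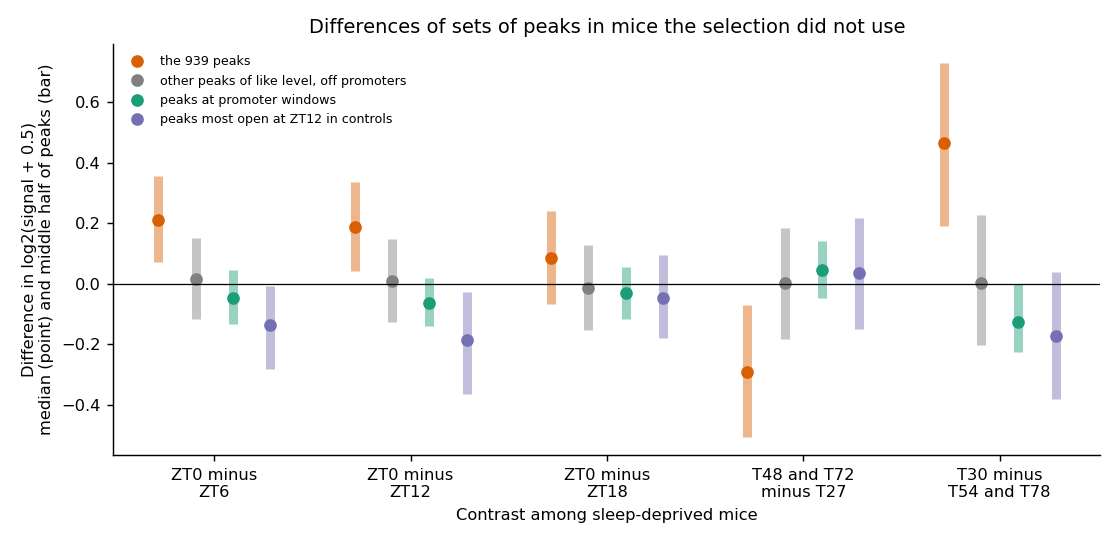
Differences in log2(signal + 0.5) between groups of deprived mice for the 939 peaks, other peaks of like level off promoters, promoter peaks and the peaks most open at ZT12; points are medians and bars hold the middle 50% of peaks. The 939 peaks have medians of 0.211, 0.188 and 0.085 for ZT0 over ZT6, ZT12 and ZT18, -0.292 for T48 and T72 minus T27, and 0.465 for T30 minus T54 and T78.

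Sets of other peaks give the scale. For ZT0 over ZT6, other peaks off promoters in the same level band had a median of 0.017 with 0.472% called higher, and promoter peaks -0.046. Peaks chosen by the same rule had medians of -0.010 for ZT3, 0.007 for ZT6 and 0.071 for ZT18. Those most open at ZT12 had a negative median, -0.135, with 104 of 2659 called lower. These are descriptions over peaks that share libraries, and the sets were not tested against each other.

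Of the 5 comparisons, that of mice at the end of deprivation had the largest median difference. At T30, after 6 h awake, 212 of the 939 peaks (22.6%) were more open than at T54 and T78, the same time of day (ZT6) 1 and 2 days after it, against 1.95% of all peaks. Lower were 2 (0.213%), against 0.774%. The median was 0.465 (1.38-fold), against -0.018 for all peaks and 0.004 for other off-promoter peaks of like level, of which 1.99% were called higher. Positive differences numbered 834 (88.8%). Called peaks were 1.48-fold to 3.60-fold more open, with a median of 1.89-fold. This comparison shares the T54 and T78 animals with that of ZT0 against ZT6, so the 2 do not support each other.

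Peaks named for their time of day can be read in the same animals. The Mki67-side peak stood at 12.5, 12.6 and 14.1 at T30, above all animals of T54 (at most 4.10) and T78 (at most 4.96), and differed by 1.74 (SE 0.21, 3.34-fold, limma adjusted p = 9.63e-08). At T27 it was 11.1, 14.0 and 18.8. The peak in Mtcl1 stood at 8.12, 9.47 and 11.3, with no overlap either, and differed by 1.67 (SE 0.23, 3.19-fold, limma adjusted p = 1.59e-06). The Htr1b-side peak, at 15.8, 17.7 and 20.0, overlapped 1 T54 animal and differed by 1.21 (SE 0.24, limma adjusted p = 0.0012). The Rora-side peak, at 9.12, 9.57 and 16, differed by 0.91 (SE 0.20, limma adjusted p = 0.00317) without overlap. The peaks of Bhlhe40 (0.59, adjusted p = 0.247), Npas2 (0.27, 0.674) and Hlf (-0.28, 0.663) were not called.

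Of the peaks with the largest excess in controls, 6 of 8 were called at T30. They were Cramp1l, a chromatin regulator homologue (1.3, limma adjusted p = 7.07e-05), the site 65269 bp from Dusp4, a MAP kinase phosphatase (1.09, 0.0133), Nwd2 (1.02, 0.0145), Tafa2, a secreted neuronal protein (0.95, 0.00912), Cdkal1 (0.91, 0.0487) and Rtkn2 (0.90, 0.00985). The Dusp4-side peak read 4.29, 4.35 and 5.34 at T30, above 2.06, 2.47 and 2.81 at T54 and 0.903, 1.86 and 1.91 at T78. C1qtnf7 (0.80, adjusted p = 0.0632) and Gbf1 (0.31, 0.593) were not called. Of the 6 highest peaks, Tet1 alone was not called (0.37, adjusted p = 0.191); the others ranged from 0.58 for Camta1 (0.0296) to 1.06 for Il1rl1 (1.79e-05). The largest difference, named after it was seen, belonged to a peak within Cpa6, a carboxypeptidase gene, at chr1:10486279-10486708. It read 6.70, 6.80 and 8.99 at T30 against 1.29, 1.48 and 2.81 at T54 and 1.45, 1.58 and 1.91 at T78 (1.85, SE 0.27, 3.60-fold, limma adjusted p = 1.33e-05).

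The 2 peaks called lower, also named after their values were seen, lay within Myt1l, a neuronal transcription factor (-1.31, limma adjusted p = 0.0028), and Maco1 (-0.73, 0.0461). The Myt1l peak read 0.804, 1.45 and 2.18 at T30, below all T54 (4.38 to 5.43) and T78 animals (2.48 to 4.36). Among the 12 promoter members, 3 were called higher at T30: Pate1 (0.89, adjusted p = 0.0233) and the windows of the gene models Gm34644 (0.80, 0.00847) and Gm46738 (0.72, 0.0106). The windows printed above were not called. Sprr1a read 2.61, 4.13 and 5.10 at T30 against 1.29, 2.22 and 2.81 at T54 and 1.13, 1.24 and 3.54 at T78 (0.86, adjusted p = 0.116). Chst4 differed by 0.54 (adjusted p = 0.240) and Scn7a by -0.08 (0.934).

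Calls were again most frequent at high levels: 126 of the 212 were among the 313 highest peaks, 51 in the middle and 35 in the lowest. The median difference was 0.566, 0.442 and 0.346. Within genes 100 of 475 were called and outside 112 of 464. With the promoter share as a covariate 32 members and 428 of all peaks were called higher, and the members' median was 0.373. Without T30S4 it was 64 members and 619 of all peaks, and without T30S1 118 and 1139.

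T27, after 3 h awake, was compared with T48 and T72, which sets ZT3 during deprivation against ZT0 after it, so time of day and deprivation cannot be told apart. Here 14 of the 939 peaks (1.49%) were lower at T48 and T72, that is, more open at T27, against 0.121% of all peaks, and 0 were higher. The median was -0.292 and 169 were positive. In the undisturbed mice the same peaks were lower at ZT3 than at ZT0, by choice. The peak within Nwd2 read 5.29, 5.61 and 6.05 at T27 against 1.21, 2.69 and 4.05 at T48 and 1.83, 2.14 and 2.17 at T72, without overlap (-1.17, SE 0.26, limma adjusted p = 0.0297). The Mki67-side peak missed the threshold (-0.85, SE 0.21, adjusted p = 0.0640). Without 1 library the members' median stayed between -0.347 and -0.259. The count of 14 changed, and so did the 158 called lower over all peaks, given in brackets. Without T27S3 or T27S5 the count was 1 (1), without T48S4 3 (12) and without T72S3 5 (37). It was 8 (69) without T48S1, 25 (308) without T72S2 and 26 (285) without T48S3. It was 3 with the promoter share as a covariate (39 of all peaks) and 37 by edgeR (384).

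Some genes had several of the peaks. The 4 nearest to Mki67 spanned chr7:135813203-136039362, of 24 peaks nearest to that gene, and only the first was called at either comparison. The other 3 differed between ZT0 and ZT6 by 0.37, 0.17 and 0.05. Rimbp2, which encodes a scaffold of presynaptic release sites, held 3 of 28 within it, of which 1 was called at ZT0 over ZT6 (0.66, limma adjusted p = 0.0366) and at T30 (0.89, 0.0427). Rimbp2 RNA was higher by 0.10 at ZT0 (limma adjusted p = 0.0196) and by 0.19 at T30 (0.0039). Celf4, a neuronal RNA-binding protein, had 4 of 131 peaks, and Grin2b (a subunit of the NMDA receptor), Cacna1c (an L-type calcium channel), Rims1 and Noct had 3 each. Of these genes' RNA, Noct, a gene with daily cycling, was higher at ZT0 by 0.26 (limma adjusted p = 0.000173) and at T30 by 0.34 (0.000488). Grin2b (0.28, 0.0107) and Cacna1c (0.21, 0.0431) were higher at T30 alone, which does not show that their 2 comparisons differ. In all, 75 of the 939 peaks had another within 50 kb.

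The RNA of the nearest genes was a readout that the rule had not used. Of the 829 genes, 682 had an RNA row. At ZT0 over ZT6 in the deprived mice 137 of them were higher (20.1%), against 13.6% of all 13842 genes, and 62 were lower (9.09%), against 13.1%. At T30 152 were higher (22.3%), against 14.7%, and 72 were lower (10.6%), against 15.0%. The median differences were small: 0.017 and 0.036 for genes that held a peak and 0.024 and 0.046 for genes beside one. Genes nearest to any peak of the table were higher in 13.8% and 15.1%. Genes of called and of other peaks had like shares: at T30 40 of 166 genes of called peaks were higher (24.1%), and 119 of 544 genes of the peaks not called (21.9%). At ZT0 over ZT6 it was 7 of 37 (18.9%) and 132 of 653 (20.2%).

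**Figure D5:**
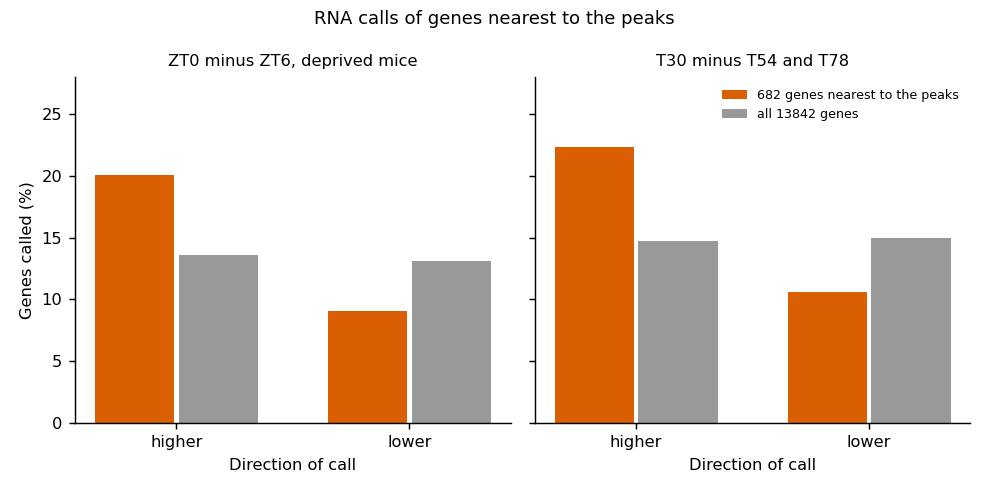
Bars give the share (%) of genes whose RNA was called higher or lower (limma adjusted p under 0.05), for the 682 genes nearest to the peaks (orange) and all 13842 genes (grey). For ZT0 minus ZT6 the higher share is 20.1% against 13.6% and for T30 minus T54 and T78 22.3% against 14.7%.

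Examples of nearest genes with large RNA differences were named after their values were seen. Dusp4 stood at 3.38 log2 units at T48 (SD 0.21, n = 3) and 2.62 at T54 (SD 0.23), and at 3.95 at T30 (SD 0.19). It was higher at ZT0 by 0.72 (limma adjusted p = 1.00e-05) and at T30 by 1.48 (3.88e-08). Trib1, a pseudokinase with 2 of the peaks nearby, was higher by 0.96 (limma adjusted p = 0.000308) and 1.36 (0.000388), and its relative Trib2 by 0.61 (4.67e-05) and 0.92 (2.46e-05). Sgsm1 was higher by 0.50 and 1.23, and Cbln4, a synaptic organiser, by 0.34 and 1.26. Car12, a carbonic anhydrase (1.25, limma adjusted p = 1.92e-07), and Scg2, a secretogranin released with neuropeptides (0.74, 1.14e-07), were higher at T30. Htr1b was higher at T30 by 0.72 (limma adjusted p = 4.39e-06).

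Some nearest genes were lower. Cirbp, a cold-inducible RNA-binding protein, stood at 6.37 log2 units at T48 (SD 0.05, n = 3) against 6.99 at T54 (SD 0.10), and at 6.08 at T30 (SD 0.09). It was lower at ZT0 by -0.56 (limma adjusted p = 6.78e-08) and at T30 by -0.90 (7.07e-09), although its peak was chosen for being most open at ZT0. At T30 Hlf RNA was lower (-0.31, limma adjusted p = 0.00103), while Bhlhe40 (0.60, 0.00131) and Npas2 (0.37, 0.000124) were higher.

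In the undisturbed mice, 136 of the 682 genes (19.9%, all genes 17.1%) had their highest mean RNA at ZT0 and 188 (27.6%, all genes 24.6%) at ZT18. Of the 22 immediate early genes, near which none of the peaks lay, 18 were higher at ZT0 over ZT6, with a median of 0.64, and 19 were higher and 1 lower at T30, with a median of 1.26. Of the 22 clock genes 7 were higher and 4 lower at ZT0, and 8 and 7 at T30. Of 33 cell type markers in 7 lists, 5 were higher (2 of 3 of endothelium, 2 of 4 of oligodendrocyte precursors, 1 of excitatory neurons) and 3 lower at ZT0, and 3 higher and 4 lower at T30, with every list median between -0.07 and 0.10. Their part in the differences of the peaks was not tested.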

How the data were processed

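ATAC-seq and RNA-seq were made from the cortex of the same mice, per the labels' protocols, except that some animals have RNA libraries alone. The submitters' processing notes name FastQC, Bowtie2, SAMtools, MACS2 2.1.1, bedtools 2.26.0, HTSeq 0.6.1, kallisto 0.43.0 and sleuth 0.29.0, with builds GRCm38 and mm10, in no stated order. The ATAC values are a normalized signal as deposited by the authors, over 130727 peaks and 60 libraries whose columns sum to 943538 to 1039380. Within a library each was a whole multiple of 1 step (100% of values, tolerance 0.02), which gave back the reads. RNA values are log2 levels as deposited, for 13842 genes. The sources used here do not give their scaling. A floor at -1 is seen in batch 1 (53 values) but not in batch 2 (0). The repeat ATAC library of animal T0N3 was left out. Peak positions are as the authors deposited them. Genes, the nearest coding gene by distance, and promoter windows came from RefSeq, and 56 peaks on unplaced contigs had none.

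Analyses of ATAC used log2(signal + 0.5), so fold changes of low peaks are understated. All tests were fitted with limma 3.58.1 (R 4.3.3; group means, intensity trend) on the deprived libraries only, 34 for ATAC (22 residual degrees of freedom) and 36 for RNA (24), over all peaks or genes, two-sided, with Benjamini-Hochberg adjustment. Each deprived group lies in 1 batch, and each contrast was balanced within batches. ZT0 minus ZT6 is the mean of T48 minus T54, T72 minus T78 and T192 minus T198. ZT0 minus ZT12 and ZT0 minus ZT18 average T48 and T72 minus T36 or T42 (batch 1) with T192 minus T60 or T66 (batch 2). T48, T72 and T192 thus enter several comparisons, as do T54 and T78. On simulated data only the ZT0 minus ZT6 fit was run, and no result here rests on that run. A peak without a call is not shown to be unchanged. As an alternative, edgeR 4.0.16 was run on the recovered reads.

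The members, the gene lists and the rules for named genes were chosen with earlier results of these data known. Named peaks were the 8 with the largest excess, the 8 with the largest called rise at ZT0 over ZT6, the 6 with the highest level, 3 on each side of the margin and those nearest to clock or immediate early genes, with the RNA of their nearest genes; others are said to have been named after their values were seen. Lists held 22 clock and 22 immediate early genes and markers of excitatory neurons (6), inhibitory neurons (6), astrocytes (5), oligodendrocytes (5), their precursors (4), microglia (4) and endothelium (3).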

Additional observations from a re-analysis of the deposited data

Results flagged for a closer look

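Single animals that lay far from the rest of their control group were looked for in the level of all 939 peaks and in 50 named peaks, over 204 groups of 4 or more. This gave 17 cases. The rate of about 5% by chance holds for independent groups. These groups share libraries, and the control values chose the peaks, so no excess is read from the count. The level of the 939 peaks relative to all peaks was 0.106 in animal T0N9 at ZT0, against -0.186 to -0.0796 in the other ZT0 animals. Animal T0N9 also had the highest signal in the peak nearest to Tafa2 (14.5, others 5.34 to 9.6).

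At ZT0, animal T0N5 was low in the peaks within Ptprn2 (3.1, others 6.02 to 8.29) and Tet1 (19.3, others 23.2 to 26.5), and animal T0N2 was high in a peak nearest to Mki67 (7.66, others 4.45 to 5.51). At ZT6, animal J76N2 was high within Nwd2 (3.29, others 1.61 to 2.01), animal T6N4 within Rimbp2 (3.57, others 1.94 to 2.31), and animal T6N3 both in another Rimbp2 peak (5.54, others 1.87 to 2.69) and in another peak nearest to Mki67 (9.15, others 4.02 to 5.39).

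At ZT12, animal T12N2 was low in the peaks of Prelid2 (1.01, others 2.24 to 2.49) and Tet1 (10.8, others 15.2 to 16.9) and high in that of Chst4 (4.38, others 1.81 to 2.24). Animal T12N6 was high at Vmn2r120 (2.59, others 1.26 to 1.49) and animal T12N4 at Scn7a (2.74, others 2.21 to 2.36). At ZT18, animal T18N2 was low within Mtcl1 (2.81, others 4.73 to 5.04) and high near Pla2g4a (4.35, others 2.02 to 2.36), and animal T18N3 was low within Ptprn2 (3.28, others 5.63 to 6).

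The repeat library of animal T0N3, which entered no comparison, had a level of -0.164 for the 939 peaks, above the -0.746 to -0.461 of the controls at other times. The first library of that animal helped to choose the peaks, and the rule itself set the other times lower. The repeat library is therefore no independent check.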

How the results depend on the processing

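The number of peaks the rule chose was 56 at a margin of 0.5 and 88 at a minimum level of 3. From the controls of batch 1 alone it was 2275, with 595 of them among the 939. A pseudocount of 1 gave 720, of which 615 were among the 939. The repeat library of T0N3 in place of the first gave 1043, with 711 among the 939. When 1 control library was left out it was 864 to 1306, of which 669 to 886 were among the 939. Called members at ZT0 over ZT6 were 12 with the promoter share as a covariate, 0 on Day 2, 0 on Day 3 and 0 on Day 8 alone, and 21 on the days of batch 1. Over ZT12 they were 12 with the covariate, 45 by edgeR, 9 in batch 1 (median 0.069) and 6 in batch 2 (0.301). Over ZT18 edgeR called 1. Members more open at T27 were 3 with the covariate and 37 by edgeR. At T30 the covariate left 32 (median 0.373). Leaving out 1 library gave 14 to 60 calls for ZT6 (median 0.200 to 0.223), 6 to 28 for ZT12 (0.159 to 0.207), 0 for ZT18 (0.056 to 0.116), 1 to 26 for T27 (-0.347 to -0.259) and 64 to 209 for T30 (0.415 to 0.505). Counts over all peaks changed as well, and the cause of these changes was not tested. Nearest genes called by RNA were then 112 to 147 higher and 42 to 65 lower at ZT0 over ZT6, and 112 to 157 and 50 to 77 at T30. No median changed sign under any setting run. Of the named calls, the covariate lost 31 of 50, edgeR 3 of 50, and a pseudocount of 1, TMM factors and the filter on level 0 of 50. In refits without 1 library, a named call of a peak or gene was kept 894 times and lost 183 times. The covariate, the single batches and the choice without T0N9 were added after seeing the data. A median of 7 to 44 reads per member and library limits what single peaks can show.

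Animal numbers did not pair the samples: over 116 pairs that share a number, the median correlation of residuals was -0.0025. With the number as a replicate block 25 members were called at ZT0 over ZT6 (326 of all peaks), 19 over ZT12 (148) and 0 over ZT18 (0). It was 1 for T27 (1 of all peaks) and 182 at T30 (1916), and 10 of 85 named calls were lost.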
